A study of Mus musculus with 10 samples.

Results

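The subunits of oxidative phosphorylation were followed in hematopoietic stem cells of mice given tunicamycin or DMSO. The members are the protein-coding genes whose symbols start with Ndufa, Ndufb, Ndufc, Ndufs, Ndufv, Sdh, Uqcr, Cox4i, Cox5, Cox6, Cox7, Cox8 or Atp5, together with Cyc1, Cycs and the 13 protein genes of the mitochondrial genome. Assembly factors named Ndufaf were left out, and so were 13 models whose symbols matched but which are not protein-coding. The rule gave 104 of the 51670 gene models measured. They are 86 nuclear genes for subunits, 13 mitochondrial genes and 5 nuclear genes that match by name but are not subunits (Sdhaf1 to Sdhaf4 and Atp5s). The nuclear subunits comprise 36 genes of complex I, 4 of complex II, 9 of complex III, the electron carrier Cycs, 20 of complex IV and 16 of ATP synthase.

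The cells came from bone marrow of wild-type C57BL/6J mice and were sorted as CD48-CD150+LSK, that is, cells without lineage markers that carry Sca-1 and Kit. One group of 5 libraries came from mice injected intraperitoneally with tunicamycin at 2 mg/kg, a compound that blocks N-linked glycosylation and so loads the endoplasmic reticulum with unfolded protein. The other 5 libraries came from mice injected with DMSO. The labels name no age, no time from injection to sorting, no cell number, and no link between a library and an animal, and p-values here describe the scatter among libraries, which may be technical.

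The respiratory chain sits in the inner mitochondrial membrane. Complex I takes electrons from NADH and complex II takes them from succinate. Both pass them through coenzyme Q to complex III, and cytochrome c carries them on to complex IV, which reduces oxygen. The protons moved on the way drive ATP synthase. Most subunits are encoded in the nucleus and imported, while a core set in complexes I, III, IV and ATP synthase is made inside the mitochondrion from its own genome. Quiescent hematopoietic stem cells are known for leaning on glycolysis while keeping many mitochondria at low activity.

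Nuclear genes of this pathway are known targets of NRF1, of ETS-family factors such as GABPA, and of YY1. RefSeq promoters (GRCm38.p6, 250 bases before to 50 after the start) were matched for 74 of the 91 nuclear members, 69 of them subunits. On either strand, the NRF1 motif GCGCANGCG lay in 21 of the 69 subunit genes (30.4%), against 7.03% of all 27025 genes with a promoter. The ETS motif CCGGAAG lay in 16 of 69 (23.2%, against 9.93%) and the YY1 motif AANATGGC in 17 of 69 (24.6%, against 6.96%). Subunit promoters were also richer in G and C, with a median of 58.3% against 52.8%. Among protein-coding genes alone the shares were 9.63% for NRF1, 12.9% for ETS and 7.46% for YY1. Genes with several promoters count once if any holds the motif, and the subunits had fewer promoters per gene (mean 1.07 against 1.22).

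The 4 promoters below belong to nuclear members of 4 different steps of the chain, all lower after tunicamycin. They were picked as examples without a stated rule and do not stand for the set. Each of these genes has an NRF1 match, as against 17 of the 50 lower subunits with a matched promoter. Cox6a1 is the only 1 of 14 complex IV genes with such a match. All were read from RefSeq, and each line gives the 250 bases before the start, 5′ to 3′ on the gene's own strand, with motif matches in capitals. Cycs lies on chr6:50566570-50566819 (minus strand), with an NRF1 match 61 to 53 bases before the start. Sdhd lies on chr9:50603850-50604099 (minus strand), with an NRF1 match at -79 to -71 and an ETS match at -46 to -40. Uqcr11 lies on chr10:80406822-80407071 (minus strand), with an ETS match at -66 to -60; its NRF1 match counted above spans the start site and is cut off in the bases shown, so it is not in capitals. Cox6a1 lies on chr5:115348959-115349208 (minus strand), with overlapping NRF1 matches at -162 to -154 and -161 to -153, another at -117 to -109, and an ETS match at -16 to -10. A match is a run of letters and not evidence that a factor binds there.
Cycs: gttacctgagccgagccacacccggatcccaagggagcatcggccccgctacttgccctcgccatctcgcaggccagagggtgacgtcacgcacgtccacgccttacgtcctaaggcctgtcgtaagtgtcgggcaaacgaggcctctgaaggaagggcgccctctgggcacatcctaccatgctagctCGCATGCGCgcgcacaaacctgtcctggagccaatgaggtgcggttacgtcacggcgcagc
Sdhd: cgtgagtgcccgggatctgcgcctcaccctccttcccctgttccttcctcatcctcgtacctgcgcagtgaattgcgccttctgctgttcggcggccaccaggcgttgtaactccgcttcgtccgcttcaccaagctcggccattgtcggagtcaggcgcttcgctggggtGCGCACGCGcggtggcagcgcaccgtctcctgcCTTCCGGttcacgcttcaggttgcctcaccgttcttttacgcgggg
Uqcr11: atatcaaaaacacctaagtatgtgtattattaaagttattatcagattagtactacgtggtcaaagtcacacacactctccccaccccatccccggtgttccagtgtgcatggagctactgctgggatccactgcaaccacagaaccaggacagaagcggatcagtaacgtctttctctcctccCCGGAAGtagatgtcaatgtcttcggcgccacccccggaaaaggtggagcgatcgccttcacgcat
Cox6a1: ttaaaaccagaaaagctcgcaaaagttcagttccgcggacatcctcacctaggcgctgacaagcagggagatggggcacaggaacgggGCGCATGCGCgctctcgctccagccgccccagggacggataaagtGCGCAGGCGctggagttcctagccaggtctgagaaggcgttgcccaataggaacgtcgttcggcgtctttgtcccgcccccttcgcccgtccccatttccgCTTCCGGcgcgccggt

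The deposited values are FPKM, a level per length of transcript that is also corrected for library size. Genes were tested with limma on log2(FPKM + 1) if at least 5 libraries reached 1 FPKM, and a gene was called at a Benjamini-Hochberg adjusted p under 0.05 over all 14727 genes tested. Summed over the 86 nuclear subunits, FPKM stood at 7074, 8629, 7198, 6789 and 9880 in Tunicamycin libraries 1 to 5, against 14394, 12121, 10753, 12067 and 13434 in DMSO libraries 1 to 5. All 5 treated libraries lay below all 5 DMSO libraries. The treated mean was 63.0% of the DMSO mean. The 13 mitochondrial genes summed to 20114, 14049.6, 19209, 18937 and 10512 FPKM in treated libraries, against 27559, 26167, 40084, 25489.9 and 38688 FPKM in DMSO libraries. Here too the groups did not overlap, with a treated mean at 52.4% of the DMSO mean. In bulk RNA, fewer cells of a type and less RNA per cell cannot be told apart.

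**Figure D1:**
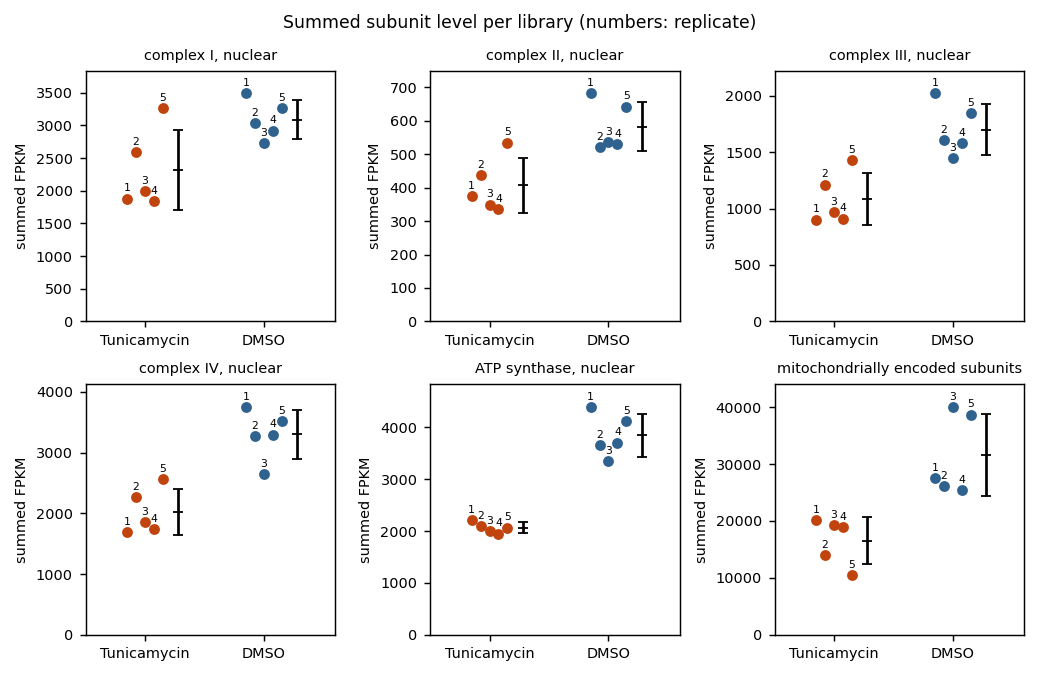
Summed FPKM of the subunits of each complex (y axis, from 0) in each library, with Tunicamycin left and DMSO right; points are libraries numbered by replicate, and the bar beside them is the mean ± SD of 5. The ATP synthase panel separates the groups most cleanly (1951 to 2214 against 3353 to 4399), while Tunicamycin 5 reaches the DMSO range in complexes I and II.

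By gene, 60 of the 81 nuclear subunits that passed the filter were lower after tunicamycin, 1 was higher, and 20 did not pass the threshold, 17 of them with a log2 change below 0. Over all genes tested, 15.4% were lower and 29.9% higher by the same limma call. The median log2 change of the nuclear subunits was -0.59, against 0.18 over all genes tested. In 35 of the 81, every treated library lay below every DMSO library, and 11% of all genes tested showed that. Every treated library lay above every DMSO library in 1 nuclear subunit, Cox6a2, and in 19.2% of all genes tested. Abundant genes as a whole leaned the same way. Of the 583 genes with a mean of at least 100 FPKM, 49.1% were lower and 23.7% higher, and their median log2 change was -0.39. In 40.8% of them all treated libraries lay below all DMSO libraries, and in 19.6% above. Of the 39 nuclear subunits in that range, 32 were lower (82.1%), as were 28 of the 42 tested ones below it (66.7%). Of the 13 mitochondrial genes, 10 were lower and none was higher by limma. At an unadjusted p under 0.05, 11 were lower and again none was higher. Their median log2 change was -1.01.

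Scaling shifts these values. Scaling every library to the same median gave a median log2 change over all genes of -0.04, quantile normalization gave -0.01, and equal sums gave 0.28. Of all calls, 66.1% were higher as deposited, 43.1% with equal medians, 47.6% with quantile normalization and 76.5% with equal sums. Set against the median of all genes, the median of the nuclear subunits was -0.77 as deposited, -0.80 with equal medians, -0.59 with quantile normalization and -0.75 with equal sums. The number of nuclear subunits called lower was 74, 66 and 47 under those 3 scalings, in the same order. Lower calls over all genes rose as well under the first of these scalings, to 3989 of 14696 tested with equal medians. With quantile normalization they were 3767 of 14727, against 2261 of 14727 as deposited.

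**Figure D2:**
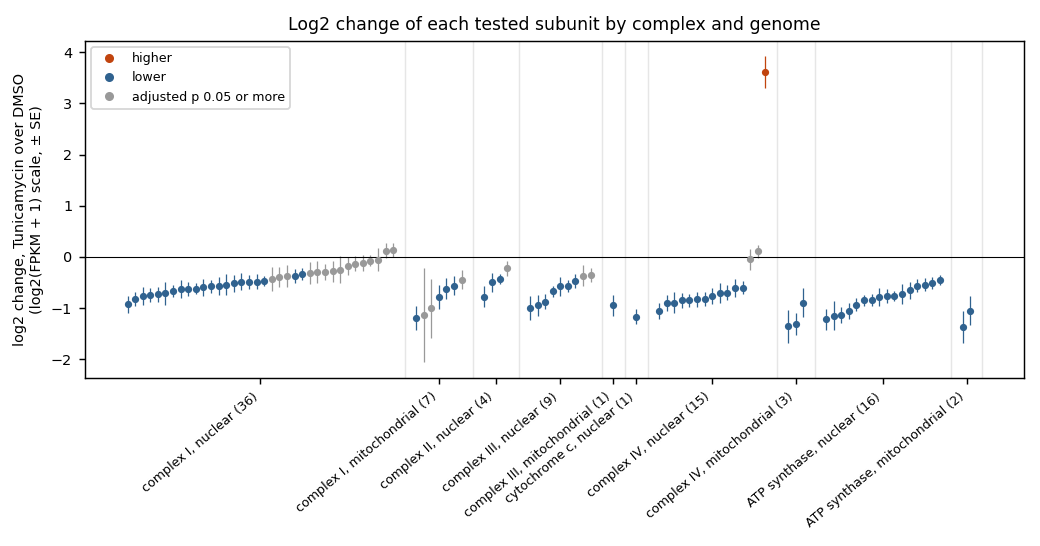
Log2 change of each tested subunit, Tunicamycin over DMSO, with its SE (y axis, log2(FPKM + 1) scale), ordered within each complex and genome of origin along the x axis (number of genes in parentheses). The points sit below 0 except Cox6a2 at 3.62 and 3 grey points just above 0 in complexes I and IV, and all 16 nuclear ATP synthase genes are called lower.

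Libraries varied in ways that touch these sums. Tunicamycin 5 was the highest treated library for 65 of the 81 nuclear subunits, and at the same time it had the smallest share of its FPKM sum in the mitochondrial protein genes (2.41%, against 3.18% to 4.45% in the other treated libraries and 5.11% to 8.08% in DMSO). Nuclear rRNA models took 2.64% of its FPKM sum, against 7.995% to 14.7% in the other treated libraries and 10.1% to 13.05% in DMSO libraries. Tunicamycin 1 is deposited in whole numbers and was the lowest treated library for 37 of the 81 nuclear subunits. Both libraries also differed over all tested genes. At 1 kb or more, the median deviation from the other 4 treated libraries was -0.31 in Tunicamycin 1 and 0.25 in Tunicamycin 5 (log2 scale). Under 1 kb it was -0.46 and 0.16, and over the nuclear subunits -0.26 and 0.51. DMSO 3 and DMSO 5 held 0.149 and 0.0654 FPKM of Xist, against 28.2 to 35.6 in the other 8 libraries. Read depth inferred from the steps between low values ran from about 35500000 to 57700000 reads in 4 treated libraries and from about 18600000 to 60500000 in DMSO libraries. Markers of the sorted cell were present in every group, with 8 stem cell markers summing to 512 to 694 FPKM in treated and 331 to 479.9 in DMSO libraries. Markers of other cell types moved as well. All 10 macrophage markers were higher (summed 1867 to 5251 FPKM in treated, 466 to 1077 in DMSO libraries), as were all 7 endothelial ones (98 to 227 against 36.5 to 76.8), 4 of 5 stromal ones (178 to 493 against 21.7 to 152), 3 of 4 tested megakaryocyte ones (868 to 1398 against 212 to 690) and 3 of 3 tested B cell ones (37 to 60.2 against 22.4 to 31.3). Of 8 erythroid markers 4 were higher and 4 lower (summed 4080 to 8072 against 1827 to 4005), and none of 6 neutrophil markers passed the threshold (299 to 1264 against 283 to 1824). Of 4 T and NK cell markers, 1 was tested (Nkg7) and it did not pass the threshold. These 4 summed to 49.7 to 92.7 FPKM in treated and 64.2 to 133 FPKM in DMSO libraries. Nkg7 held most of that, with means of 61.2 and 91.6 FPKM. The megakaryocyte marker Gp1bb and the T cell marker Cd3g stayed under 0.3 FPKM on average in both groups. All 8 cell cycle genes were lower (268 to 357 against 678 to 1031). The part of these markers and library differences in the subunit values was not tested.

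Complex I, the NADH dehydrogenase, was split in its calls: 21 of its 36 nuclear genes were lower, none was higher (nor at an unadjusted p under 0.05), and the median log2 change was -0.47. For this and each complex below, the share lower to set beside the counts is 15.4% over all genes tested. It is 49.1% among genes with a mean of at least 100 FPKM. The 7 nuclear core subunits of complex I carry the flavin and the iron-sulfur clusters. Their median log2 change was -0.49, close to the -0.47 of the 29 accessory subunits. By calls, 15 of the 29 accessory subunits and 6 of the 7 core subunits were lower. Ndufs8, a core iron-sulfur subunit, was the exception, with 108, 139, 102, 93.0 and 198 FPKM in treated and 159.5, 135, 123, 136 and 144 FPKM in DMSO libraries. By family, the lower calls were 6 of 13 Ndufa, 6 of 10 Ndufb, 2 of 2 Ndufc, 5 of 8 Ndufs and 2 of 3 Ndufv genes.

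Ndufv2, a core iron-sulfur subunit of the NADH-binding arm, had 67, 71.5, 70.2, 63.2 and 82.1 FPKM after tunicamycin, against 135, 105, 110.4, 97.2 and 117 FPKM after DMSO. No treated library reached the DMSO range. Its log2 change was -0.66 ± 0.11 (SE; limma adjusted p = 0.000562). Ndufb9, an accessory subunit of the membrane arm, had 87, 97.7, 84.6, 73.0 and 112 FPKM in treated libraries, against 195, 151, 143, 138 and 176 in DMSO libraries. Again the groups were apart, with Tunicamycin 5 the highest treated one, and the log2 change was -0.82 ± 0.14 (adjusted p = 0.000489). Ndufa5, another accessory subunit, had the lowest log2 change of the complex, -0.93.

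A pair of complex I genes stood on the other side of 0 without passing the test. Ndufa6, an accessory subunit of the LYR-motif family, had 52, 81.4, 79.6, 72.4 and 88.6 FPKM in treated libraries and 66.0, 73.7, 58.4, 72.8 and 66.4 FPKM in DMSO libraries. The groups overlapped, and the log2 change was 0.13 ± 0.14 (adjusted p = 0.477). Ndufv3, an accessory subunit beside the NADH-binding core, had 32, 46.2, 36.0, 33.4 and 52.3 FPKM in treated libraries and 36.7, 41.1, 30.4, 38.0 and 34.8 FPKM in DMSO libraries, with a log2 change of 0.12 ± 0.14 (adjusted p = 0.525). Both changed sign with equal medians, to -0.13 for each, and Ndufv3 also with sample weights.

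Tunicamycin 5 was the highest treated library for 33 of the 36 genes and lay above every DMSO library for 14 of them. In 11 genes, 4 treated libraries lay below all DMSO libraries and the exception was Tunicamycin 5 each time. Without it, 29 of the 36 genes were lower. Equal sums gave 12 and equal medians 32 lower genes, and leaving out DMSO 3 and DMSO 5, the libraries without Xist, gave 12.

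**Figure D3:**
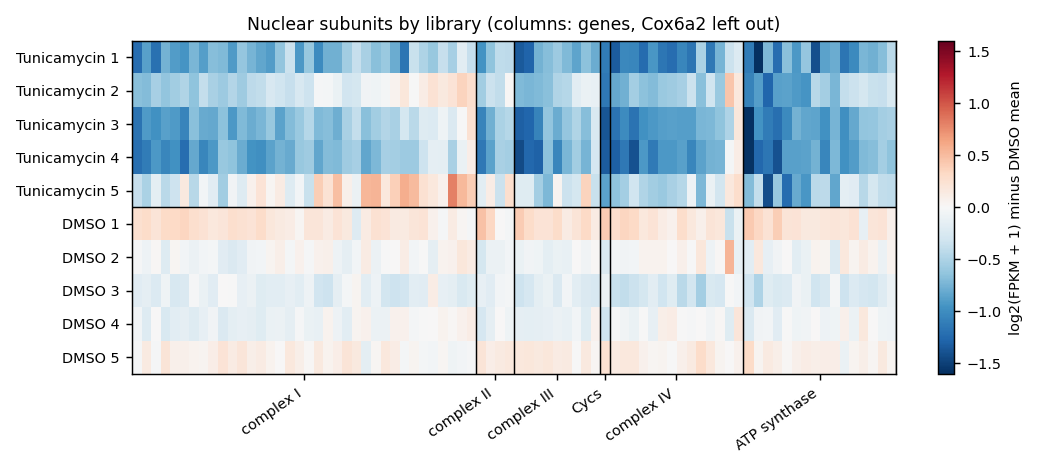
Log2(FPKM + 1) of each nuclear subunit minus its DMSO mean (colour scale), with libraries as rows, treated above DMSO, and genes as columns grouped by complex; Cox6a2 is left out because its change of 3.62 is beyond the scale. Tunicamycin 1, 3 and 4 are blue across nearly every column, while Tunicamycin 5 turns red in part of complex I (14 of 36 genes above every DMSO library) and stays blue in ATP synthase (0 of 16 above).

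Complex II, succinate dehydrogenase, is encoded entirely in the nucleus and also serves the citric acid cycle. Of its 4 subunits, 3 were lower. Sdha, the flavoprotein that oxidizes succinate, had 161, 162, 150.0, 148 and 168 FPKM in treated libraries, against 213, 199, 206, 214 and 236 FPKM in DMSO libraries. The groups did not overlap and the spread within each was small, with a log2 change of -0.43 ± 0.10 (adjusted p = 0.00293). Sdhd, a membrane anchor, had 89, 117, 82.5, 78.1 and 154 FPKM in treated libraries, against 241, 143, 158, 144 and 199.6 FPKM in DMSO libraries. Only Tunicamycin 5 reached the DMSO range, and the log2 change was -0.78 ± 0.20 (adjusted p = 0.00787). Sdhb, the iron-sulfur subunit, was lower by -0.50, and Sdhc, the other anchor, at -0.22 did not pass the threshold (adjusted p = 0.248).

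Of the 4 succinate dehydrogenase assembly factors that share the Sdh prefix, 1 was called. Sdhaf2, which helps attach the flavin to Sdha, was lower (17.2 ± 1.29 FPKM in treated and 21.2 ± 1.89 FPKM in DMSO libraries, SD, n = 5 each; log2 change -0.29, adjusted p = 0.0300 by limma). Sdhaf1 had 1, 2.53, 2.11, 1.45 and 3.22 FPKM in treated libraries and 1.09, 1.92, 1.38, 1.55 and 1.123 FPKM in DMSO libraries. Its log2 change was 0.31 ± 0.20 (adjusted p = 0.242). It was called higher when Tunicamycin 1 was left out, the only setting in which a member other than Cox6a2 was called higher. Of the 2490 exon bases of Sdhaf1, 1733 (69.6%) also lie in exons of other gene models. The part of that in its value was not tested. Sdhaf4 had 12, 22.7, 17.9, 15.8 and 30.4 FPKM in treated libraries and 17.7, 17.6, 15.7, 17.0 and 17.2 FPKM in DMSO libraries, with a log2 change of 0.14 ± 0.19 (adjusted p = 0.579). Sdhaf3, at 1.92 ± 0.566 FPKM in treated and 1.89 ± 0.185 FPKM in DMSO libraries, did not pass the threshold either. The sum of these 4 genes and Atp5s ran from 39 to 72.2 FPKM in treated and from 53.4 to 57.7 FPKM in DMSO libraries.

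In complex III, cytochrome bc1, 7 of the 9 nuclear genes were lower and the median log2 change was -0.57. Uqcrc2, a core protein of the matrix side, had 88, 89.3, 91.2, 90 and 85.7 FPKM in treated libraries, against 165, 127, 132, 130.1 and 161 FPKM in DMSO libraries. The treated values lay close together and all below DMSO, with a log2 change of -0.67 ± 0.11 (adjusted p = 0.000287). Cyc1, the haem-bearing cytochrome c1, had 84, 86.9, 67.5, 57.5 and 97.5 FPKM in treated libraries, against 167, 136, 128, 129 and 159 FPKM in DMSO libraries. The groups were apart, with a log2 change of -0.88 ± 0.15 (adjusted p = 0.00052). Uqcr11, a small membrane subunit, had the lowest log2 change of the 9. It had 121, 190.2, 125, 114 and 272 FPKM in treated libraries, against 409, 288, 246, 281 and 349 FPKM in DMSO libraries. Its log2 change was -0.995 ± 0.23 (adjusted p = 0.00409), with Tunicamycin 5 inside the DMSO range. Uqcrq and Uqcrh were below 0 (-0.37 and -0.35) without passing the threshold.

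Cycs, the mobile carrier between complexes III and IV, was among the nuclear members with the lowest log2 change. It had 17, 16.7, 14.2, 14.6 and 20.6 FPKM in treated libraries, against 51.0, 32.4, 35.6, 30.4 and 45.5 FPKM in DMSO libraries. All treated values lay below all DMSO values, at 42.7% of the DMSO mean (log2 change -1.16 ± 0.15, adjusted p = 9.21e-05). Its gene lies on chromosome 6 (mm10 6:50562563-50566538, minus strand).

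Complex IV, cytochrome c oxidase, is the complex of tissue isoforms. Of 15 tested nuclear genes, 12 were lower, 1 was higher and 2 did not pass, and the median log2 change was -0.76. Cox5a, a matrix-side subunit, had 25, 29.5, 25.2, 21.6 and 32.6 FPKM in treated libraries, against 56.6, 50.5, 42.9, 44.0 and 49.3 FPKM in DMSO libraries. The groups did not overlap (log2 change -0.84 ± 0.13, adjusted p = 0.000208). Cox6b1, Cox5b, Cox6a1 and Cox6c had log2 changes from -1.06 to -0.85. Another 5 isoform genes stayed under the filter. Cox7a1, the muscle form of subunit 7a, ranged from 0 to 1.64 FPKM in treated and from 0.320 to 1.08 FPKM in DMSO libraries. Cox8c ranged from 0 to 1.91 and from 0.286 to 1.11 FPKM. Cox7b2 and Cox8b stayed under 0.6 FPKM in all libraries, and Ndufa4l2, the hypoxia-linked relative of Ndufa4, reached 0.907 FPKM in Tunicamycin 5 and at most 0.0998 FPKM in DMSO libraries.

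The gene that went against the rest was Cox6a2, the form of subunit 6a known from heart and skeletal muscle. It had 29, 40.9, 22.2, 20.8 and 51.4 FPKM in treated libraries, against 0.868, 4.64, 1.26, 1.36 and 1.121 FPKM in DMSO libraries. Every treated library lay above every DMSO library, with a ratio of means of 17.8. The log2 change was 3.62 ± 0.31 (adjusted p = 5.01e-06). The ubiquitous Cox6a1 had 257, 362, 232, 201 and 425 FPKM in treated libraries, against 660.4, 515, 418, 491 and 596 FPKM in DMSO libraries (log2 change -0.90 ± 0.21, adjusted p = 0.00363). Cox6a2 thus made up 8.72% to 10.8% of the summed FPKM of both genes in treated libraries and 0.131% to 0.893% in DMSO libraries. The within-library share spread less among treated libraries (9.84% ± 0.801, SD, n = 5) than the level of either gene.

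Cox6a2 lies on chromosome 7 (mm10 7:128205435-128206387, minus strand) inside the span of Itgad, an integrin gene of the opposite strand. Of its 680 exon bases, 70 (10.3%) also belong to exons of Itgad. Itgad had 34, 23.5, 19.7, 14.1 and 19.2 FPKM in treated libraries and 5.67, 10.1, 5.59, 7.95 and 5.31 FPKM in DMSO libraries, a log2 change of 1.52. Strand is not given in the sources used here, so reads of the shared bases cannot be assigned, and the part of Itgad in the Cox6a2 value was not tested.

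**Figure D4:**
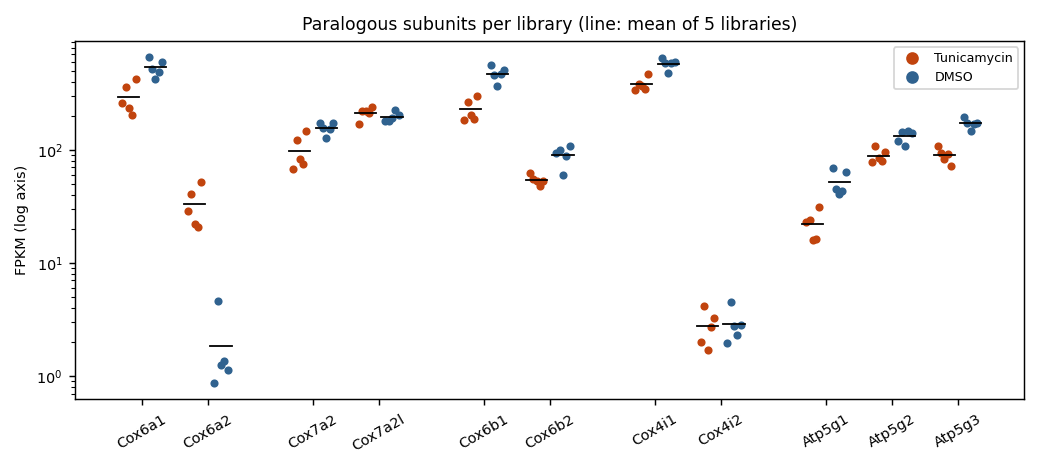
FPKM (log axis) of paralogous subunits in each library, Tunicamycin left of DMSO for each gene, with the line at the mean of 5 libraries. Cox6a2 alone has every treated library above every DMSO library (20.8 to 51.4 against 0.868 to 4.64), 5 genes overlap between groups (Cox6a1, Cox6b2, Cox7a2, Cox7a2l and Cox4i2), and the other 5 have every treated library below every DMSO library.

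In the other isoform families, Cox7a2l, a relative of Cox7a2, had 168, 219, 221, 212 and 237 FPKM in treated libraries and 181, 179.7, 189.9, 223 and 205 FPKM in DMSO libraries. The groups overlapped, with a log2 change of 0.11 ± 0.12 (adjusted p = 0.49) that turned to -0.15 with equal medians. Cox7a2 was lower (98.5 ± 33.5 and 156 ± 19.1 FPKM, treated and DMSO, SD, n = 5 each), so that Cox7a2l made up 62.0% to 74.0% of the pair in treated libraries and 50.9% to 60.1% in DMSO libraries. Cox4i1, the common form of subunit 4, was lower (378 ± 51.4 FPKM in treated and 574 ± 62.4 FPKM in DMSO libraries). Cox4i2, a form known from lung, made up 0.464% to 1.08% of the pair in treated and 0.304% to 0.780% in DMSO libraries. Cox6b2, known as the testis form of subunit 6b, was present throughout, at 54.3 ± 4.997 FPKM in treated and 90.02 ± 18.2 FPKM in DMSO libraries, and it was lower like Cox6b1 (log2 changes -0.70 and -1.06). Its share of the pair was 15.1% to 25.1% in treated and 14.2% to 18.0% in DMSO libraries. Cox8a had 246, 364, 299.7, 291 and 365 FPKM in treated libraries, against 600.3, 575, 442, 588 and 569 FPKM in DMSO libraries, with no overlap. Ndufa4, once counted in complex I and now known as a complex IV subunit, had 69, 109, 88.1, 85.0 and 113 FPKM in treated libraries, against 170.4, 164, 142, 177 and 162 FPKM in DMSO libraries, again with no overlap.

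In ATP synthase, all 16 nuclear genes were lower, 12 of them without overlap of the groups, and the median log2 change was -0.77, with a range from -1.22 to -0.45. Over all genes tested, 15.4% were lower and 11% lay wholly below DMSO. Among genes with a mean of at least 100 FPKM these shares were 49.1% and 40.8%. The summed FPKM of ATP synthase was 2214, 2099, 2006, 1951 and 2068 in treated libraries, against 4399, 3656, 3353, 3709 and 4121 in DMSO libraries, a treated mean at 53.7% of the DMSO mean. Tunicamycin 5, which was high for complex I, did not stand out here in the sum. In the 4 genes with overlap it was the one treated library inside the DMSO range.

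Among its parts, the catalytic head was lower in 5 of 5 genes. Atp5b, the catalytic beta subunit and the most abundant nuclear member, had 893, 609, 676, 663 and 551 FPKM in treated libraries, against 1734, 1343, 1285, 1424 and 1631 FPKM in DMSO libraries. Atp5c1, the gamma subunit of the rotating stalk, had 141, 143, 159, 146 and 152 FPKM in treated libraries, against 311, 238, 257, 256 and 284 FPKM in DMSO libraries. The groups were far apart relative to their spread (log2 change -0.85 ± 0.10, adjusted p = 5.76e-05). Atp5f1, subunit b of the fixed stalk, had 82, 85.4, 84.7, 86.6 and 80.0 FPKM in treated libraries, against 164, 123, 140.0, 136 and 155 FPKM in DMSO libraries (log2 change -0.76 ± 0.10, adjusted p = 9.65e-05). Atp5g1, Atp5g2 and Atp5g3 encode the same mature subunit c, the rotor ring. Atp5g1 had 23, 23.8, 15.8, 16.4 and 31.1 FPKM in treated libraries, against 68.8, 45.3, 40.9, 43.3 and 63.4 FPKM in DMSO libraries, the lowest log2 change of any nuclear member (-1.22 ± 0.20, adjusted p = 0.00038). Summed over the family, subunit c transcripts ran from 183 to 224 FPKM in treated and from 296 to 385 FPKM in DMSO libraries. As deposited, Atp5g1 was the smallest contributor in each library. The processed pseudogene Gm10039 holds 7.38% of the sequence stretches of Atp5g1. It had 47.9 to 87.7 FPKM in treated and 116 to 203 FPKM in DMSO libraries, more than Atp5g1 in each library. Gm10039 was not added to the family, and the part of shared sequence in the rank, sum and log2 change was not tested. Atp5s, a coupling factor that carries the prefix but is not a subunit, had 10, 16.9, 16.1, 14.4 and 17.7 FPKM in treated libraries and 13.6, 12.4, 15.5, 14.2 and 15.3 FPKM in DMSO libraries (log2 change 0.06 ± 0.14, adjusted p = 0.765).

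The mitochondrial genome encodes 7 subunits of complex I, cytochrome b of complex III, 3 subunits of complex IV and 2 of ATP synthase. Its genes differed widely in level. mt-Co1, the catalytic subunit of complex IV, had 7340, 4566, 7047, 6723 and 2923 FPKM in treated libraries, against 8393, 8465, 13354, 8471 and 12991 FPKM in DMSO libraries (log2 change -0.90 ± 0.28, adjusted p = 0.0211). mt-Cytb had 5342, 3920.3, 4869.7, 4971 and 3714 FPKM in treated libraries, against 8432, 7428, 11452, 6817 and 10329.8 FPKM in DMSO libraries (log2 change -0.95 ± 0.21, adjusted p = 0.00259). mt-Nd1 had 4292, 3016, 3929.7, 4119 and 2248 FPKM in treated libraries, against 6983, 6457, 10152, 6356 and 10044 FPKM in DMSO libraries (log2 change -1.19 ± 0.24, adjusted p = 0.00145). In these 3 genes every treated library lay below every DMSO library, with Tunicamycin 5 the lowest and DMSO 3 the highest. The next levels were held by further membrane subunits of complex I. mt-Nd5 had 1110, 835, 1100, 1008 and 472 FPKM in treated libraries, against 1339, 1316, 1794, 1318 and 1775 FPKM in DMSO libraries. mt-Nd4 had 963, 790.5, 1099, 1091 and 601 FPKM in treated libraries, against 1110.3, 1226, 1718, 1155 and 1767 FPKM in DMSO libraries. mt-Nd2 had 363, 365, 411, 407 and 212 FPKM in treated libraries, against 488, 483, 596, 431 and 543 FPKM in DMSO libraries. These 3 were lower without overlap, with log2 changes of -0.79, -0.62 and -0.56. Several of these calls depended on single libraries. That of mt-Co1 was lost without Tunicamycin 2 or DMSO 5 (adjusted p = 0.0513 and 0.0562). That of mt-Nd4 was lost without Tunicamycin 2, DMSO 3 or DMSO 5 (adjusted p from 0.0576 to 0.0685), and that of mt-Nd2 without DMSO 3 or DMSO 5 (0.0524 and 0.0522). With quantile normalization the calls of mt-Co1, mt-Cytb, mt-Nd2, mt-Nd4 and mt-Nd5 were all lost, and without both DMSO 3 and DMSO 5 those of mt-Co1, mt-Nd2, mt-Nd4 and mt-Nd5. Without the filter mt-Co1, mt-Nd2 and mt-Nd4 were lost, and other settings lost mt-Nd2 (equal sums) and mt-Nd4 (sample weights, and without Tunicamycin 1 and 5). mt-Nd6, the only protein gene on the other strand of the mitochondrial genome, had 525, 408, 559, 471 and 273 FPKM in treated libraries and 518, 556, 758, 522 and 626 FPKM in DMSO libraries. It overlapped and did not pass the threshold (log2 change -0.44 ± 0.19, adjusted p = 0.0792), and was called lower with equal medians (adjusted p = 0.0321).

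The remaining mitochondrial genes need their sequence to be read. A stretch of chromosome 1 (24612407 to 24615565, minus strand in mm10) holds copies of mt-Nd4l, mt-Nd3, mt-Co3, mt-Atp6 and mt-Co2 as separate gene models. Over the aligned bases, mt-Atp6, mt-Co2, mt-Co3 and mt-Nd4l have 0 differences from their copies, and mt-Nd3 has 1. That difference is T3C, counted from base 1 of mt-Nd3, with the mitochondrial base first. The first 33 bases of each are shown with the differing base in capitals.
mt-Nd3: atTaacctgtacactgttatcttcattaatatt
Gm28438: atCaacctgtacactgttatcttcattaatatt

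mt-Nd3, a small membrane subunit of complex I, had 33, 50.3, 63.7, 3.24 and 16.4 FPKM in treated libraries, against 74.1, 3.20, 101, 94.4 and 138 FPKM in DMSO libraries. It fell near 3 FPKM in Tunicamycin 4 and DMSO 2, where the copy Gm28438 held 77.4 and 121 FPKM. Its own log2 change was -1.14 ± 0.93 (adjusted p = 0.34). Without DMSO 2 it was called, at -2.05 (adjusted p = 0.0215). Gene and copy together had 33, 51.3, 68.6, 80.6 and 16.7 FPKM in treated libraries, against 76.2, 124, 103, 97.2 and 140.4 FPKM in DMSO libraries, and that sum was called lower. mt-Nd4l had 32, 29.3, 18.1, 24.4 and 3.33 FPKM in treated libraries, against 20.2, 22.3, 25.5, 38.0 and 134 FPKM in DMSO libraries (log2 change -1.01 ± 0.58, adjusted p = 0.178), and the groups overlapped. Summed with its copy it had 35, 34.1, 24.6, 35.5 and 5.04 FPKM in treated libraries, against 26.8, 37.3, 280.0, 49.0 and 155 FPKM in DMSO libraries. That sum was called lower, though the groups still overlapped. For mt-Atp6 and mt-Co3, called on their own, the sum with the copy was below DMSO but did not pass the threshold.

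**Figure D5:**
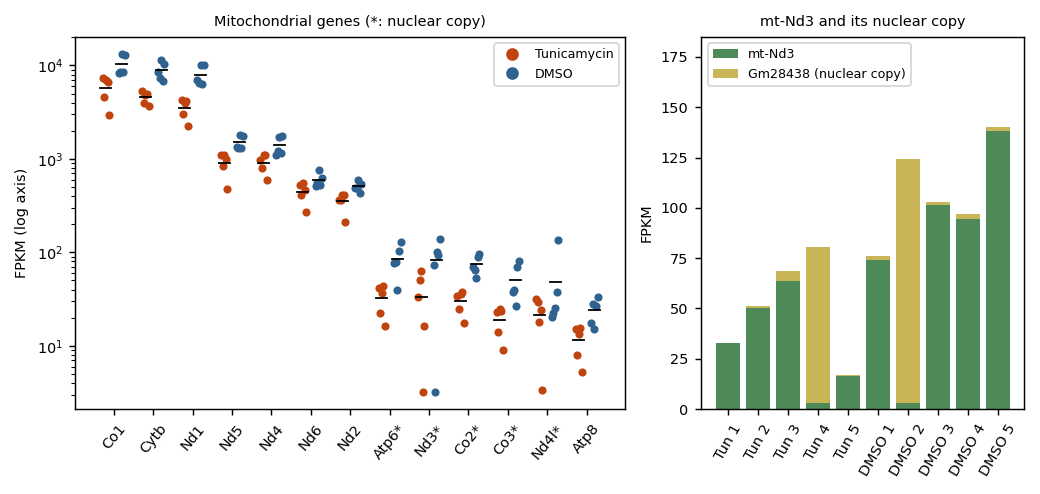
Left, FPKM (log axis) of the 13 mitochondrial genes in each library, Tunicamycin left of DMSO, lines at means. The asterisk marks the 5 genes with at least 90% of their sequence found elsewhere. Right, mt-Nd3 and its copy Gm28438 stacked per library, in which Tunicamycin 4 and DMSO 2 carry nearly all of the sum in the copy (77.4 and 121 FPKM).

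The other copied genes were lower as deposited. mt-Co2, which holds the copper centre that receives electrons from cytochrome c, had 34, 24.8, 35.9, 37.7 and 17.7 FPKM in treated libraries, against 69.4, 65.0, 52.7, 88.5 and 97.2 FPKM in DMSO libraries. The groups were apart, with a log2 change of -1.30 ± 0.22 (adjusted p = 0.000422). Summed with its copy the log2 change was -1.34 (adjusted p = 0.000646). mt-Co3 had 23, 14.0, 24.8, 23.5 and 9.07 FPKM in treated libraries, against 37.5, 39.6, 26.6, 69.1 and 81.5 FPKM in DMSO libraries. mt-Atp6, subunit a of ATP synthase, had 42, 22.5, 36.8, 43.2 and 16.3 FPKM in treated libraries, against 76.4, 78.4, 40.02, 102 and 128 FPKM in DMSO libraries. Its neighbour mt-Atp8, of which 21.1% of the bases overlap mt-Atp6, had 15, 8.01, 13.4, 15.6 and 5.18 FPKM in treated libraries, against 17.7, 27.9, 14.99, 26.4 and 33.6 FPKM in DMSO libraries. In both ATP synthase genes the highest treated values reached past the lowest DMSO value. Of the 7 genes other than mt-Atp8 with under 90% of their sequence found elsewhere, 6 were lower. As deposited, these 7 made up nearly all of the mitochondrial sum (10444 to 19935 FPKM in treated, 25071 to 39823 FPKM in DMSO libraries). The part of shared sequence in that was not tested.

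DMSO 3 and DMSO 5, the libraries without Xist, held the highest mitochondrial sums. Without them, 6 of the 13 genes were called lower in place of 10, and the median log2 change was -0.64. With quantile normalization 5 were called and the median was -0.45. The mitochondrial rRNA mt-Rnr2 had 1757 to 12472 FPKM in treated and 10372 to 19931 FPKM in DMSO libraries. These ranges overlap, and its highest level was in DMSO 2, not in the libraries with the highest protein gene sums. The ratio of the mitochondrial to the nuclear subunit sum was 1.06 to 2.84 in treated and 1.91 to 3.73 in DMSO libraries, and the ranges overlap.

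Of nuclear subunits with under 1 kb of exons, 12 of 19 were lower (63.2%), against 20.5% of all tested genes of that length. Of longer ones 48 of 62 were lower (77.4%), against 14.3%. Among nuclear subunits with a matched promoter, the NRF1 motif lay in 17 of the 50 lower ones (34%) and in 4 of the 16 that were tested but not lower (25%), and the YY1 motif in 12 and 5. By complex, NRF1 matches were found in 7 of 14 ATP synthase genes and 1 of 14 complex IV genes, both of which were mostly lower. The gene models of Atp5l and Atp5h share 69.1% and 53.8% of their 40-base stretches with other loci (the closest of each is a processed pseudogene), so their values are uncertain. Other models overlap exons of a neighbour, among them Sdhaf1 (69.6% of exon bases), Atp5o (47.9%), Ndufb6 (39%) and Ndufa13 (29.98%).

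Other genes of the pathway were taken from lists chosen with earlier results of these data known, and are set against the 15.4% lower and 29.9% higher of all genes tested. Of 44 tested assembly factors, 9 were lower (20.5%, near that background) and 1 was higher (2.27%), with a median log2 change of -0.12. Cmc2, linked to complex IV assembly, had 8.25 ± 1.61 FPKM in treated and 16.4 ± 2.13 FPKM in DMSO libraries (SD, n = 5 each). Ndufaf5, an assembly factor of complex I, had 12.5 ± 3.44 and 22.9 ± 2.72 FPKM. Surf1, of complex IV assembly, was the higher one, at 36.6 ± 5.16 FPKM in treated and 29.1 ± 2.76 FPKM in DMSO libraries. Its call was lost when any 1 library other than Tunicamycin 1 was left out (adjusted p from 0.0547 to 0.111), with equal medians (log2 change 0.06), without the filter, and without DMSO 3 and DMSO 5.

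Of 35 tested genes of mitochondrial genome expression, 14 were lower (40%) and 1 higher (2.86%), with a median log2 change of -0.15. Tufm, the mitochondrial elongation factor, had 36.0 ± 2.12 FPKM in treated and 60.9 ± 4.45 FPKM in DMSO libraries. Lrpprc, which stabilizes mitochondrial mRNA, had 15.2 ± 0.868 and 24.2 ± 2.96 FPKM, treated and DMSO. Tfam, which packages and transcribes the mitochondrial genome, was lower at 12.1 ± 1.33 FPKM in treated and 15.7 ± 1.26 FPKM in DMSO libraries (log2 change -0.35 ± 0.10, limma adjusted p = 0.0158). The call of Tfam was lost with equal sums, without the filter, and without DMSO 3 and DMSO 5 (adjusted p from 0.061 to 0.117). Fastk was the higher one, at 16.9 ± 0.708 FPKM in treated and 13.6 ± 1.91 FPKM in DMSO libraries. Its call was lost without Tunicamycin 2, 3 or 4 or DMSO 1, 3 or 4 (adjusted p from 0.0586 to 0.0849), with equal medians (log2 change 0.06) or quantile normalization, without the filter, and without both DMSO 3 and DMSO 5.

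Regulators of mitochondrial biogenesis were mostly not called: of 10 tested, 1 was lower (Pprc1, a coactivator, 7.95 ± 1.31 FPKM in treated and 10.98 ± 1.57 FPKM in DMSO libraries) and 1 higher (Esrra, a nuclear receptor, 3.75 ± 0.473 FPKM in treated and 2.28 ± 0.292 FPKM in DMSO libraries). The call of Pprc1 was lost without Tunicamycin 3 or DMSO 2 (adjusted p = 0.0569 and 0.0543), with equal sums, without the filter, and without DMSO 3 and DMSO 5. That of Esrra was lost with quantile normalization (adjusted p = 0.105). Nrf1 had 21.7 ± 1.87 FPKM in treated and 24.6 ± 0.830 FPKM in DMSO libraries, a log2 change of -0.18 that did not pass (limma adjusted p = 0.132) as deposited and did pass with equal medians or quantile normalization. Ppargc1a stayed at or below 1.09 FPKM in every library and was not tested.

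Genes of coenzyme Q synthesis and other electron entry counted 5 lower and 5 higher of 21 tested (23.8% each), against 15.4% lower and 29.9% higher over all genes. Coq7 and Coq4, of the synthesis pathway, were lower (9.45 ± 1.16 and 6.40 ± 0.820 FPKM in treated, 16.9 ± 3.004 and 10.3 ± 1.02 FPKM in DMSO libraries). Coq8a, an atypical kinase of the pathway, was higher at 43.2 ± 9.19 FPKM in treated and 15.6 ± 2.41 FPKM in DMSO libraries, and so was Coq10b, a coenzyme Q binding protein (19.4 ± 5.61 and 9.56 ± 0.692 FPKM). Of 14 tested carriers and inhibitors, 7 were lower (50%) and 1 higher (7.14%), with a median log2 change of -0.43. These genes are abundant, with a median level of 83.6 FPKM. Among all genes with a mean of at least 100 FPKM, 49.1% were lower and 23.7% higher, with a median of -0.39. The share lower in the list is near that. Atpif1, the inhibitor of ATP synthase, had 152 ± 20.2 FPKM in treated and 338 ± 75.1 FPKM in DMSO libraries (log2 change -1.13). Chchd2 had 105 ± 8.81 and 202 ± 29.2 FPKM, and Ucp3, an uncoupling protein, was higher from a low level, at 2.37 ± 0.479 FPKM in treated and 0.722 ± 0.179 FPKM in DMSO libraries.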

How the data were processed

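Each library is sorted bone marrow stem cell RNA, reverse-transcribed and amplified by Geo-seq and made into Tn5 libraries, per the labels' protocols. The authors deposited 1 table of FPKM per gene model. Bowtie 0.12.9, Cufflinks 2.1.1, HTSeq, DESeq2 and mm10 appear in the submitters' processing notes, with no role given. Tunicamycin 1 was deposited as whole numbers and is handled as a score comparable with FPKM; whether the authors rounded it is not stated. Symbols came from GENCODE M21, matched by identifier for 51454 of 51670 models.

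Genes with at least 1 FPKM in at least 5 libraries (14727) were tested on log2(FPKM + 1), a scale that understates changes of low genes, with limma 3.58.1 (lmFit and eBayes with a trend) in R 4.3.3, all 10 libraries and group as the only term, two-sided, with Benjamini-Hochberg adjustment over all genes. The fit was tested on simulated data first. No count test was run, since FPKM are not counts. Depth was inferred from steps between low values, of which 80.3% to 93.8% lay within 0.05 reads of a whole read; it cannot be had for Tunicamycin 1. Shared sequence was measured as 40-base stretches found in other gene models. The labels do not say whether replicate numbers pair libraries, and the main fit used no block.

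Members and lists were chosen with earlier results of these data known. Members described with full values were, in each complex and genome of origin, the 2 with the smallest adjusted p and the 1 farthest from the group median, those with a sign opposite to the nuclear median, all mitochondrial genes and the isoform families. In each list they were the 2 with the smallest adjusted p per direction, plus Nrf1, Tfam, Ppargc1a and Atpif1. Ndufs8, Ndufa5, Sdhb, Sdhc, Uqcrq, Uqcrh, Cox5b, Cox6c and Atp5b were named after their values were seen. The 24 alternatives cover the pseudocount, filters, scaling, weights, rounding, the replicate block and left-out libraries.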

Additional observations from a re-analysis of the deposited data

Results flagged for a closer look

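Within groups of 5 libraries, a value was picked out where its gap to the nearest other library exceeded 0.71 of the range of the group. Chance alone picks about 1 in 20 groups, and 3 of 78 were picked. Cox6a2 had 4.64 FPKM in DMSO 2, above the other DMSO libraries and below every treated library; without DMSO 2 its log2 change was 3.90. mt-Nd2 had 212 FPKM in Tunicamycin 5, below the other treated libraries. mt-Nd4l had 134 FPKM in DMSO 5, above the other DMSO libraries, in a gene whose nuclear copy differs at 0 aligned bases.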

How the results depend on the processing

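Of 278 alternative values of the counts and medians, 267 kept their direction and moved by less than the limit set for a change. Some of them could not move. Each replicate number occurs once in both groups, so the replicate block leaves every median log2 change as it was. The tally therefore overstates how far the values were put to the test. Mitochondrial genes called lower were 5 with quantile normalization and 6 without DMSO 3 and DMSO 5. Complex I genes called lower were 12 with equal sums, 32 with equal medians and 12 without DMSO 3 and DMSO 5. The median log2 change was -0.84 for nuclear subunits with equal medians and -0.45 for mitochondrial genes with quantile normalization. Over all genes, 2824 were higher with a mean of at least 5 FPKM (4403 before, fewer genes tested), and 3989 and 3767 were lower with equal medians and quantile normalization (2261 before). The cause of the other shifts was not tested. Leaving out 1 library gave 52 to 70 nuclear, 7 to 11 mitochondrial, 15 to 29 complex I and 16 to 16 ATP synthase genes called lower, and 1 to 2 members called higher. Values of genes not called changed sign with equal medians (Atp5s -0.19, Cox7a2l -0.15, Ndufa6 -0.13, Ndufv3 -0.13, Sdhaf4 -0.11), quantile normalization (Atp5s -0.096, Sdhaf4 -0.0023) and sample weights (Ndufv3 -0.0026). With 1 library left out, Atp5s ran from -0.0041 to 0.19 and Sdhaf4 from -0.026 to 0.29. With the replicate number as a block, 60 nuclear subunits were lower, the same 60. Deviations of same-numbered libraries correlated at 0.021 to 0.25. That was above the best differently numbered library for replicates 1 (0.25 against 0.059), 2 (0.23 against 0.11) and 3 (0.0850 against 0.0844). It was below for replicates 4 (0.074 against 0.21) and 5 (0.021 against 0.075). The check was mixed and does not settle pairing, and the numbers were not taken as pairs. Depth is unknown for Tunicamycin 1, and levels near 1 FPKM rest on few reads.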
